A study of Mus musculus with 4 samples.

Results

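Cell cycle and DNA replication genes were followed in CD4+ T cells from the spleens of C57BL/6 mice, whose labels read WT for wild type and *Satb1* cKO for a conditional knockout. The genes are a list of 42 proliferation genes chosen by symbol, of 55367 gene symbols in the deposited count tables. All 42 were found, and all 42 passed the low-count filter that left 12403 genes for testing. There are 2 libraries of each genotype label, WT 1, WT 2, cKO 1 and cKO 2. The design names mice with floxed *Satb1* (Satb1 F/F) and a ThPOK-cre or E8I-cre transgene, and the study's methods tie its CD4+ T cells to *Thpok-cre*, which acts after commitment to the CD4 lineage. Neither the labels nor the methods state whether WT mice carried a floxed allele or Cre, nor the age or sex of each mouse, and no treatment is named. The methods describe adult mice of both sexes. SATB1 is a nuclear protein that folds chromatin in T cells, and the comparison asks which transcripts differ when its gene is deleted in these cells.

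Most CD4+ T cells in a resting spleen are out of the cell cycle, and a small dividing fraction supplies most of the mitotic transcripts. Entry into S phase begins when E2F transcription factors, released from the retinoblastoma proteins, switch on cyclin E and the replication genes. Replication origins are licensed by ORC, CDC6 and CDT1, which load the MCM2 to MCM7 ring, and the helicase is completed by CDC45 and GINS. Later, cyclins A and B drive CDK1, the spindle is built, and the anaphase-promoting complex ends mitosis. MCM transcripts and proteins are also kept by T cells that are not dividing, whereas transcripts of mitotic genes are largely restricted to dividing cells. In bulk RNA, fewer dividing cells and less RNA per dividing cell cannot be told apart.

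The promoters of the genes are shown first because replication and mitosis genes are classically switched on through different elements. RefSeq promoters on GRCm38.p6, from 250 bases before to 50 bases after the start, were matched for 35 of the 42 genes. The motifs were searched on both strands. The E2F motif was TTTCCCGC, TTTCGCGC, TTTGCCGC or TTTGGCGC, the cell cycle homology region (CHR), bound by the DREAM and MMB-FOXM1 complexes, was TTTGAA, and the CCAAT box, bound by NF-Y, was CCAAT. Overlapping matches were allowed. Below are the 150 bases before the start of 3 mitosis and 3 replication genes, chosen after the matches and the values were seen, with matches in capitals. *Ube2c* is at chr2:164769779-164769928 on the plus strand, *Cdc20* at chr4:118437344-118437493 on the minus strand, *Top2a* at chr11:99024190-99024339 on the minus strand, *Mcm6* at chr1:128359706-128359855 on the minus strand, *Mcm3* at chr1:20820313-20820462 on the minus strand and *Cdc6* at chr11:98908001-98908150 on the plus strand.
Ube2c: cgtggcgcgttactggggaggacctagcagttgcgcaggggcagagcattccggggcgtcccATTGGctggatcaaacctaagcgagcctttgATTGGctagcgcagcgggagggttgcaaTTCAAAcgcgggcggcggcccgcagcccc
Cdc20: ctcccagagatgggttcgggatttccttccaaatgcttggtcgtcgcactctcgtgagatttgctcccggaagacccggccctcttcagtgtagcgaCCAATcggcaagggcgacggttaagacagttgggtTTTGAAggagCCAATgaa
Top2a: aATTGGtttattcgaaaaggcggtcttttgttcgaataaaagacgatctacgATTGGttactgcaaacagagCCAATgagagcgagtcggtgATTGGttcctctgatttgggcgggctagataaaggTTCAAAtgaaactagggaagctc
Mcm6: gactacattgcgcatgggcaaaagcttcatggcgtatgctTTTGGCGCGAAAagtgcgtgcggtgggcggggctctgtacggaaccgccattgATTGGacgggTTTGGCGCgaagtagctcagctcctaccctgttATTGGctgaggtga
Mcm3: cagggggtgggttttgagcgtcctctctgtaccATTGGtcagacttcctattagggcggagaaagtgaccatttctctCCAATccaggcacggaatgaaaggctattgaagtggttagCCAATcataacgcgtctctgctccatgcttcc
Cdc6: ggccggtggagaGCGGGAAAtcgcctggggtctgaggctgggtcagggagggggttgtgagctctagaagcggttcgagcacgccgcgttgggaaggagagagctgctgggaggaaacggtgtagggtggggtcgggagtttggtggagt

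In the *Ube2c*, *Cdc20* and *Top2a* stretches, a CHR lies within 29 bases of the start, and each has at least 1 CCAAT box upstream of it. *Mcm6* carries E2F matches, of which a pair overlap, and *Cdc6* carries 1. *Mcm3* has CCAAT boxes in the stretch shown and its E2F matches fall outside it. Over the full windows, a CHR was found in 12 of 18 mitosis promoters (66.7%) and 1 of 13 replication promoters (7.69%), where 20.2% of the 27018 genes with a promoter hold one. An E2F match was found in 1 of 18 mitosis promoters (5.56%) and 6 of 13 replication promoters (46.2%), against 2.61% of all genes. CCAAT boxes were frequent in both, in 16 of 18 and 9 of 13, against 41.1% of all genes. A match of letters is not a binding site, and the absence of one says only that these letters are not in the window.

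Gene counts summed to 4495902 to 6555699 per library, and the floor of 3 counts lay between 0.457 and 0.669 CPM, which is counts scaled to a library of 1e+06. The gene-level count of *Satb1* did not separate the labels, with 865 and 979 CPM in WT and 941 and 844 CPM in the cKO-labelled libraries (log2 fold change -0.05, SE 0.12, edgeR quasi-likelihood adjusted p = 0.877). Directions below are given by label. *Foxp3*, the transcription factor of regulatory T (Treg) cells, differed between the labels, with 141 and 120.02 CPM in WT and 404 and 545 CPM in the cKO-labelled libraries (log2 fold change 1.86, SE 0.16, edgeR adjusted p = 0.000447). Counts of *Xist* were 5447 in WT 1 and 4235 in WT 2 against 9 and 6 under the cKO label, and *Ddx3y* on chromosome Y had 0 and 0 against 525 and 597, so sex and genotype cannot be told apart. The 8 T cell markers summed to between 6233 and 6883 CPM, and *Cd4* lay between 1177 and 1273 CPM in all 4 libraries. Of these markers *Thy1* fell, with 1179 and 1153 CPM against 749 and 766 CPM (0.65-fold, edgeR adjusted p = 0.0169). The study describes its splenic CD4+ libraries as biological replicates, and p-values measure the spread between them. Floors cover counting error only.

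Part of the cell cycle genes fell in the cKO-labelled libraries, 8 of 21 genes of mitosis and 3 of 15 of replication among them. Of the 42 genes, 13 fell and 0 rose (edgeR quasi-likelihood test, adjusted p under 0.05), where 1.95% of all tested genes fell, 2.35% rose and 4.30% were called either way. The genes that fell were *Mcm10*, *Cdc6* and *Rrm2* of replication, *E2f2* and *Stmn1*, and *Ccna2*, *Ccnb2*, *Plk1*, *Bub1b*, *Birc5*, *Cdc20*, *Ube2c* and *Tpx2* of mitosis. The median log2 fold change of the 42 was -1.09, beside -0.0015 over all tested genes, and 40 of the 42 had a fitted value below 0. At an unadjusted p under 0.05, 34 were lower and 0 higher, where 9.39% of all tested genes were lower and 9.72% higher, and DESeq2, which called 3.44% of all genes, called 13 lower and 0 higher, of which 12 are shared.

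Both cKO-labelled libraries lay below both WT libraries in CPM for 38 of the 42 genes, where 25.5% of all tested genes did so, and both lay above for 0, where 24.8% of all tested genes did. The other 4, *Mcm6*, *Tk1*, *Ccne2* and *Ccnb1*, overlapped between the labels. The number of calls depended on single libraries, since a fit of 3 libraries called 20 of them (3.62% of all genes) without WT 1, 4 (1.39%) without WT 2, 20 (11.7%) without cKO 1 and 32 (13.8%) without cKO 2. In such a fit the lone library is assumed to vary like the others. Each call in these fits was a fall.

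**Figure D1:**
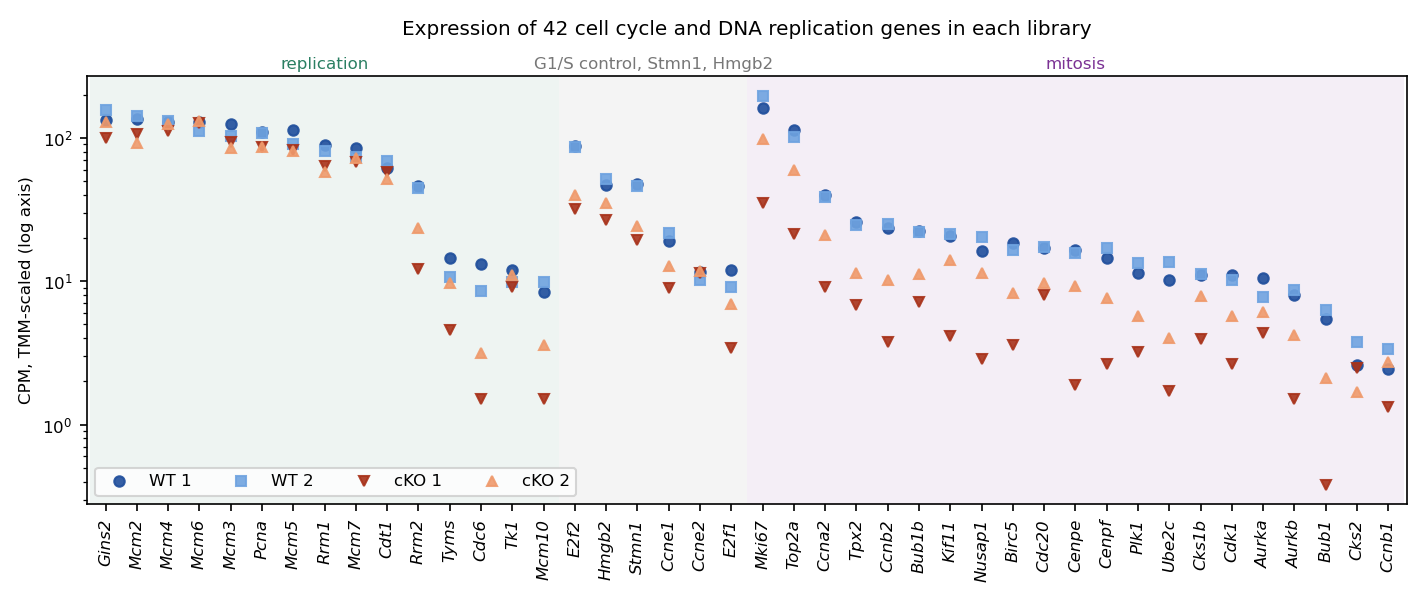
CPM on TMM-scaled library sizes (vertical, log axis) of each of the 42 genes in each of the 4 libraries, ordered within each class by the WT mean. Both cKO-labelled points lie below both WT points in 20 of 21 mitosis genes and 13 of 15 replication genes, 5 of the 6 from *Mcm2* to *Mcm7* among them, where 25.5% of all tested genes do so.

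The 15 replication genes summed to 1205 and 1146 CPM in WT and 925 and 962 CPM under the cKO label. The 21 mitosis genes summed to 562 and 595 CPM in WT but 128 and 312 CPM under the cKO label. Neither sum overlapped between the labels. For mitosis the sum of cKO 1 was the lowest and that of cKO 2 lay between cKO 1 and the WT libraries. As a mean, the replication sum went from 1175 ± 41.2 (SD, n = 2) to 944 ± 26.4 CPM (SD, n = 2), and the mitosis sum from 579 ± 23.7 (SD, n = 2) to 220 ± 130.2 CPM (SD, n = 2).

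Within each library, the replication sum divided by the mitosis sum was 2.14 in WT 1 and 1.93 in WT 2, against 7.22 in cKO 1 and 3.08 in cKO 2. The ratio was higher in both cKO-labelled libraries than in either WT library, and its mean was 2.53-fold higher. Without cKO 1 it was 1.52-fold higher, and without cKO 2 it was 3.55-fold higher, so its size depends on these libraries. A ratio that kept only *Mcm2* to *Mcm7* above the line was 2.74-fold higher, and a ratio that left out the abundant *Mki67* and *Top2a* was 2.38-fold higher. The medians of fitted log2 fold changes were -0.33 over the 15 replication genes, of which 3 were called, and -1.41 over the 21 mitosis genes, of which 8 were called. A log2 fold change of -1 or lower was fitted for 3 replication genes and 16 mitosis genes, and for 2.68% of all tested genes. The difference between the classes was not tested, since the genes were chosen with results of these data known.

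**Figure D2:**
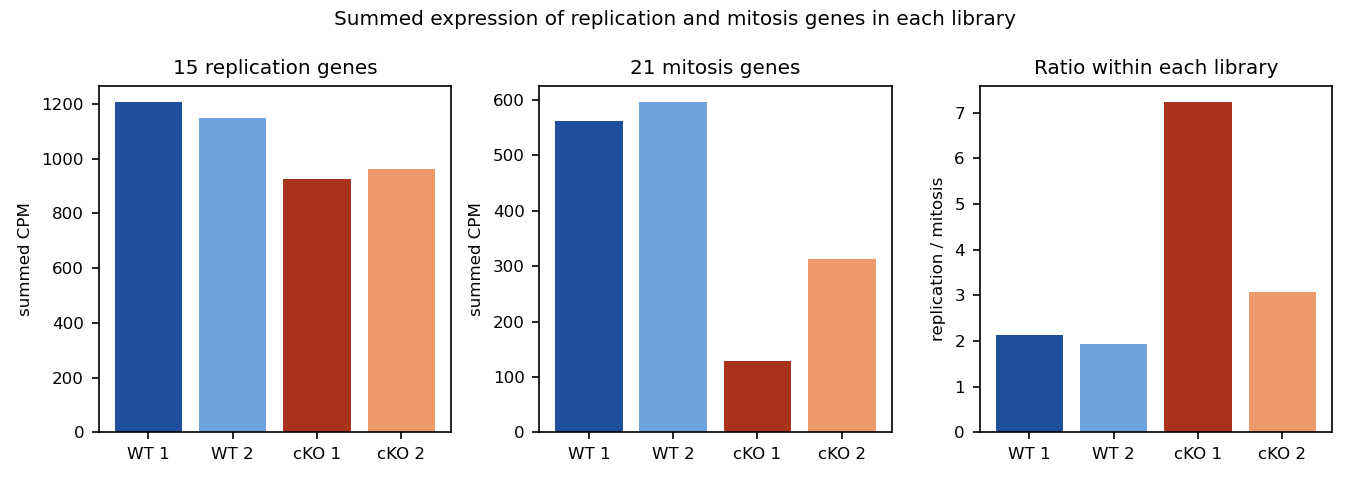
Summed CPM of the 15 replication genes and of the 21 mitosis genes, and the ratio of these sums, with 1 bar for each library and vertical axes from 0. Mitosis sums were 562 and 595 in WT and 128 and 312 in the cKO-labelled ones, while the replication sums ranged from 925 to 1205.

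Of the 6 genes of the MCM2 to MCM7 helicase, none was called, where 4.30% of all tested genes were. *Mcm2* had 135 and 141 CPM in WT and 107 and 91.6 CPM under the cKO label, a log2 fold change of -0.47 with an SE of 0.11 (edgeR adjusted p = 0.0537). *Mcm6* had 129 and 111 CPM against 127 and 131 CPM, which overlapped, and its interval at the 0.95 level ran from 0.90-fold to 1.27-fold. *Mcm3*, *Mcm4*, *Mcm5* and *Mcm7* did not overlap between the labels, and their log2 fold changes lay between -0.36 and -0.13. In the edgeR quasi-likelihood test 0 of these 6 genes were called, with 3 lower at an unadjusted p under 0.05, where 9.39% of all tested genes were, and 0 called by DESeq2. Some other settings called 1 or 2 of them. The edgeR likelihood ratio test, which called 8.84% of all tested genes, called 1. *Mcm2* was called in 6 of 12 alternatives, and its log2 fold change ran from -0.59 to -0.36 with 1 library left out. As a sum, the 6 genes had 716 and 649.9 CPM in WT and 588 and 586 CPM under the cKO label.

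Of the other licensing and helicase genes, *Cdc6* and *Mcm10* fell, where 1.95% of all tested genes did, and *Cdt1* and *Gins2* were not called. *Cdc6* encodes the ATPase that helps to load the MCM2 to MCM7 ring. It had 13.3 and 8.48 CPM in WT and 1.52 and 3.17 CPM under the cKO label (87 and 38 counts against 8 and 15). Both cKO-labelled libraries were well below both WT libraries. Its log2 fold change was -2.24 (SE 0.41, edgeR adjusted p = 0.0195), and it was called in all 12 alternative fits at an adjusted p under 0.05, as were *E2f2*, *Tpx2* and *Stmn1*. *Mcm10*, which joins the helicase when it starts to unwind DNA, had 8.38 and 9.82 CPM against 1.52 and 3.60 CPM (log2 fold change -1.84, SE 0.40, edgeR adjusted p = 0.0387). Its counts were low, 55 and 44 against 8 and 17. It was called in 10 of 12 alternatives, but not after thinning to the smallest total (edgeR adjusted p = 0.0564). Nor was it called without WT 2, where its log2 fold change was -1.73. *Cdt1*, the partner of CDC6 in loading, had 61.8 and 69.4 CPM against 57.9 and 51.2 CPM, and its interval ran from 0.68-fold to 1.02-fold. *Gins2*, a subunit of the helicase, had 134 and 155 CPM against 100.4 and 129.7 CPM. However, 67.3% of its exonic sequence is overlapped by *Gse1* on the opposite strand. Its counts are uncertain unless both the library preparation and the counting kept strand, and the methods state neither. The replication median without *Gins2* was -0.35.

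Of the clamp and nucleotide genes, *Rrm2* fell, where 1.95% of all tested genes did, and the other 4 were not called. *Rrm2*, the S phase subunit of ribonucleotide reductase, had 46.0 and 44.8 CPM in WT and 12.1 and 23.5 CPM under the cKO label. That is a log2 fold change of -1.36 with an SE of 0.25 (edgeR adjusted p = 0.0195). *Rrm1*, the large subunit of the same enzyme, had 89.6 and 80.5 CPM against 63.2 and 58.0 CPM, a log2 fold change of -0.49 (SE 0.12, edgeR adjusted p = 0.0536). The fitted folds of the subunits were 0.39 (interval 0.26 to 0.57) and 0.71 (interval 0.59 to 0.86), and their difference was not tested. *Pcna*, the sliding clamp of DNA polymerase, was tight in both labels, with 110 and 108 CPM against 86.1 and 86.8 CPM (log2 fold change -0.33, SE 0.10, edgeR adjusted p = 0.116). *Tyms*, which makes thymidylate, had 14.5 and 10.7 CPM against 4.55 and 9.73 CPM and was not called. *Tk1*, the thymidine salvage kinase, overlapped between the labels, with 11.9 and 9.82 CPM against 9.11 and 11.0 CPM.

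G1/S control held the call with the lowest adjusted p among the 42 genes. *E2f2*, an activator E2F, had 87.3 and 86.8 CPM in WT and 31.7 and 40.2 CPM under the cKO label. Its log2 fold change was -1.28 (SE 0.14, edgeR adjusted p = 0.00204). *E2f1*, its relative, had 12.0 and 9.15 CPM against 3.41 and 6.98 CPM (log2 fold change -1.06, SE 0.35, adjusted p = 0.147), which did not overlap but was not called. Neither cyclin that partners CDK2 at the G1/S boundary was called. *Ccne1* had 19.2 and 21.6 CPM against 8.92 and 12.7 CPM (log2 fold change -0.92, SE 0.23, edgeR adjusted p = 0.0606), whereas *Ccne2* had 11.6 and 10.3 CPM against 11.4 and 11.9 CPM. In *Ccne2*, 17.4% of the exonic sequence lies opposite *Ints8*.

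**Figure D3:**
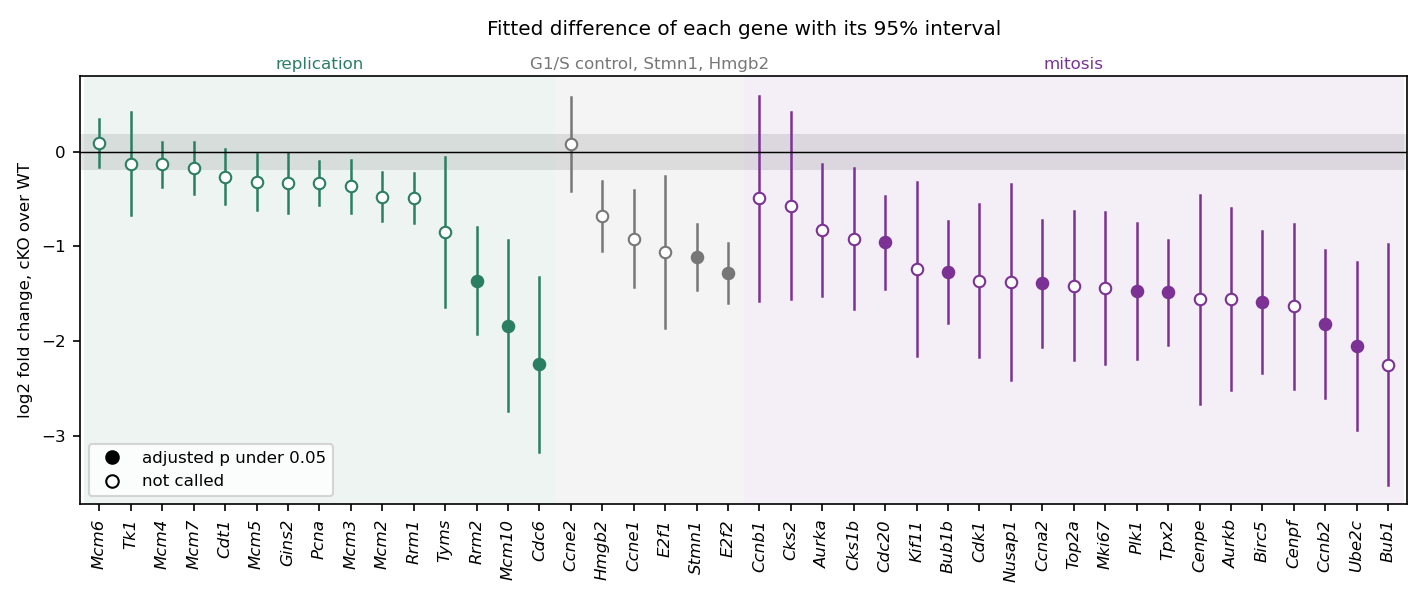
Fitted log2 fold change of each of the 42 genes, cKO-labelled over WT libraries, with its interval at the 0.95 level (lines), filled where the adjusted p was under 0.05. The grey band spans the quartiles of all tested genes, from -0.20 to 0.19. Mitosis genes lie between -2.25 and -0.49, and replication genes between -2.24 and 0.09.

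Of 6 mitotic cyclin, CDK1 and CKS genes, 2 fell, where 1.95% of all tested genes did, and the other 4 were not called. *Ccnb2*, a cyclin of CDK1, had 23.5 and 25.2 CPM in the WT libraries against 3.79 and 10.2 CPM, and its log2 fold change was -1.82 (SE 0.34, edgeR adjusted p = 0.0232). *Ccna2*, the cyclin of S phase and early mitosis, had 39.6 and 38.8 CPM against 9.11 and 21.2 CPM (log2 fold change -1.39, SE 0.30, edgeR adjusted p = 0.0364). In both genes cKO 1 stood below cKO 2 by more than 2-fold. *Cdk1* itself had 11.0 and 10.3 CPM against 2.66 and 5.71 CPM (log2 fold change -1.36, edgeR adjusted p = 0.0728). *Ccnb1*, the other B cyclin, was near the limit of detection, with 16 and 15 counts against 7 and 13, and overlapped. The small CDK-binding proteins had log2 fold changes of -0.92 for *Cks1b* and -0.57 for *Cks2*, neither called, and *Cks2* was the only mitosis gene that was lower in cKO 2 than in cKO 1.

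Mitotic kinases and checkpoint genes did not overlap between the labels in any of 6 cases, and 3 were called, where 25.5% of all tested genes lay lower without overlap and 1.95% were called lower. *Plk1*, the polo-like kinase, had 11.4 and 13.4 CPM in WT and 3.23 and 5.71 CPM under the cKO label (log2 fold change -1.47, SE 0.32, edgeR adjusted p = 0.0375). *Bub1b*, a kinetochore checkpoint protein, had 22.4 and 21.9 CPM against 7.21 and 11.2 CPM (log2 fold change -1.27, SE 0.24, edgeR adjusted p = 0.0214). The subunit of the chromosomal passenger complex encoded by *Birc5* had 18.6 and 16.5 CPM against 3.60 and 8.25 CPM (log2 fold change -1.59, SE 0.33, edgeR adjusted p = 0.0340). *Aurkb*, the kinase of the same complex, had 8.07 and 8.70 CPM against 1.52 and 4.23 CPM, a log2 fold change of -1.56 that was not called (edgeR adjusted p = 0.0818). *Bub1*, another checkpoint kinase, had the lowest fitted value of the 42 genes, -2.25 with an SE of 0.56, from 36 and 28 counts against 2 and 10. Its cKO 1 library was under the floor of 3 counts, and it was not called. *Aurka*, the spindle pole kinase, had a log2 fold change of -0.83 (SE 0.31, edgeR adjusted p = 0.192).

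Both genes of the anaphase-promoting complex fell, where 1.95% of all tested genes did, *Cdc20* close to the threshold. *Ube2c*, its ubiquitin-conjugating enzyme, had 10.2 and 13.6 CPM in WT and 1.71 and 4.02 CPM under the cKO label, 0.24-fold with an interval of 0.13 to 0.44 (edgeR adjusted p = 0.0232). *Cdc20*, its activator, had 16.9 and 17.4 CPM against 7.97 and 9.73 CPM, 0.52-fold with an interval of 0.37 to 0.73 (edgeR adjusted p = 0.0456). *Cdc20* was called in 9 of 12 alternatives and not by DESeq2 (adjusted p = 0.153), nor by edgeR without WT 1 (adjusted p = 0.120) or without WT 2 (adjusted p = 0.257). These are promoters shown above with a CHR and CCAAT boxes.

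Spindle, kinetochore and chromosome genes had large differences and a large gap between the cKO-labelled libraries. *Mki67*, which encodes the Ki-67 antigen used to score dividing cells, had 162 and 197 CPM in WT but 35.1 and 97.8 CPM under the cKO label. *Top2a*, the topoisomerase that untangles chromosomes, had 112 and 102 CPM against 21.2 and 59.9 CPM. *Mki67* was 2.79 times and *Top2a* 2.82 times as high in cKO 2 as in cKO 1. Neither was called, with log2 fold changes of -1.44 (SE 0.35, edgeR adjusted p = 0.0602) and -1.41 (SE 0.35, edgeR adjusted p = 0.0601). *Tpx2*, a spindle assembly factor with less of a gap, had 26.0 and 24.5 CPM against 6.83 and 11.4 CPM and was the gene of this group that passed (log2 fold change -1.48, SE 0.24, edgeR adjusted p = 0.0129). The kinetochore motor *Cenpe*, with 16.5 and 15.8 CPM against 1.90 and 9.31 CPM, the kinetochore protein *Cenpf*, the spindle motor *Kif11* and the microtubule binder *Nusap1* had log2 fold changes between -1.63 and -1.24 and adjusted p between 0.0522 and 0.142. In *Cenpe* cKO 2 was 4.91 times cKO 1, and in *Nusap1* it was 4.02 times.

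Genes that belong to neither class include a pair with lower values in both cKO-labelled libraries. *Stmn1*, which encodes a microtubule-destabilizing protein, had 48.0 and 46.0 CPM against 19.4 and 24.1 CPM (log2 fold change -1.12, SE 0.15, edgeR adjusted p = 0.00626). *Hmgb2*, a chromatin protein abundant in dividing cells, had 47.1 and 51.8 CPM against 26.6 and 35.3 CPM (log2 fold change -0.68, SE 0.16, edgeR adjusted p = 0.0561).

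Levels can be compared between genes only per length, here as CPM per kb of exonic sequence. In the WT libraries the means ran from 0.69 for *Ccnb1* to 45.3 for *Pcna*. *Mcm4* had 36.1, *Mcm3* 30.5, *Mcm6* 25.8, *Mki67* 17.8 and *Ccnb2* 15.9 CPM per kb. *Mki67*, *Mcm7* and *E2f2* stood at 17.8 CPM per kb each in WT and had log2 fold changes of -1.44, -0.17 and -1.28. Among replication genes the 4 under 5 CPM per kb in the WT libraries, a limit chosen after the values were seen, were *Mcm10*, *Cdc6*, *Tyms* and *Tk1*, and 2 of these 4 were called lower, where 1.95% of all tested genes were. Over these 4 the median log2 fold change was -1.34, against -0.33 over the other 11, and for mitosis genes the medians were -1.37 under that limit and -1.43 at or above it. *Tk1*, at 2.09 CPM per kb, had a log2 fold change of -0.12, while *Cdc6*, at 2.08 CPM per kb, had -2.24.

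The 42 genes lie on 15 chromosomes of GRCm38, none on X or Y, and all are protein coding. Chromosome 2 holds 9 of them. Neighbours did not always move together. *Tk1* (chromosome 11, 117815526 to 117826092) and *Birc5* (chromosome 11, 117849251 to 117855743) are 23158 bases apart, and their log2 fold changes were -0.12 and -1.59. *Cdc6* (chromosome 11, 98907801 to 98923940) and *Top2a* (chromosome 11, 98992943 to 99024189), 69002 bases apart, had -2.24 and -1.41, of which the second was not called. For 33 of the genes no exonic base is overlapped by an annotated gene on the opposite strand, and over these the median log2 fold change was -1.12 with 9 called lower, where 1.95% of all tested genes were. Of the genes that fell, such overlap covers 22.8% of the exonic sequence of *Ube2c*, 12.5% of *Ccna2*, 7.09% of *Plk1* and 2.84% of *Cdc20*, whose counts are uncertain too since the strand setting is not known. Counts of genes with pseudogenes, such as *Pcna*, *Tyms*, *Ccnb1*, *Ccnb2* and *Stmn1*, are uncertain where reads match more than 1 place. Pseudogenes of the members were not listed systematically.

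By promoter, the 15 genes with a CHR had a median log2 fold change of -1.28 (from -2.05 to -0.47) and the 20 without had -0.71 (from -2.25 to 0.09). The 8 genes with an E2F match had -0.34 and the 27 without had -1.24. Motif and class went together, since 12 of the 15 genes with a CHR are mitosis genes. Of the 8 genes with an E2F match, 6 are replication genes. The motifs were not compared within a class. The ranges overlapped widely: *Cdc6*, with an E2F match, was at -2.24, and *Bub1* and *Birc5*, with no CHR in the window, were at -2.25 and -1.59.

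Other genes of the pathway, 116 in 5 lists, had medians in the same order. Of 42 tested mitosis genes outside the first list, 14 fell and 1 rose, beside 1.95% and 2.35% of all tested genes, and the median log2 fold change was -1.19. Those that fell include *Racgap1*, a regulator of cytokinesis, with 78.0 and 78.5 CPM against 17.8 and 30.7 CPM (log2 fold change -1.70, SE 0.21, edgeR adjusted p = 0.00373), the mitotic kinesins *Kif20a*, *Kif23*, *Kif15*, *Kif2c* and *Kif4*, the condensin subunits *Ncapg* and *Ncapd2*, and *Mybl2*, the transcription factor of the MMB complex, at -1.72. *Cdca3*, *Ttk*, *Nek2*, *Cep55* and *Ect2* complete the 14. *Smc4* and *Cdc25b*, the highest of the list in CPM, were at -0.18 and 0.01 and were not called. *Pttg1*, the gene of securin, an inhibitor of the separase that parts sister chromatids, went the other way. It was called in each of the fits of 3 libraries, which called 8 of the list lower without WT 1, 1 without WT 2, 16 without cKO 1 and 33 without cKO 2, beside 3.62%, 1.39%, 11.7% and 13.8% of all tested genes in either direction. *Pttg1* had 11.1 and 7.59 CPM in WT and 30.9 and 32.4 CPM under the cKO label (log2 fold change 1.73, SE 0.21, edgeR adjusted p = 0.00329).

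Of 36 other replication genes, 2 fell and 0 rose, beside 1.95% and 2.35% of all tested genes, with 14 lower and 0 higher at an unadjusted p under 0.05 (9.39% and 9.72% of all tested genes) and 2 lower and 0 higher by DESeq2. The fits of 3 libraries called 3 lower without WT 1, 1 without WT 2, 8 without cKO 1 and 10 without cKO 2, beside 3.62%, 1.39%, 11.7% and 13.8% of all tested genes, and the likelihood ratio test called 7, beside 8.84%. The median was -0.30. *Uhrf1*, which maintains DNA methylation behind the fork, had 41.7 and 37.9 CPM against 14.6 and 24.1 CPM (log2 fold change -1.05, SE 0.22, edgeR adjusted p = 0.0308). *Chaf1b*, a subunit of the histone chaperone CAF-1, had 32.1 and 30.3 CPM against 15.7 and 11.0 CPM (log2 fold change -1.22, SE 0.20, edgeR adjusted p = 0.0120), whereas its partner *Chaf1a* was at -0.17. *Rpa1*, the highest of the list in CPM, had a log2 fold change of -0.31 (SE 0.09, edgeR adjusted p = 0.108).

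Among regulators upstream, 0 of 34 tested genes were called, where 4.30% of all tested genes were. Of 9 D cyclins and interphase kinases 0 were called (3 lower and 0 higher at an unadjusted p under 0.05), of 9 tested CDK inhibitors and brakes 0 (1 and 0), and of 16 pocket proteins, other E2F and DREAM genes 0 (3 and 2), in the edgeR quasi-likelihood test. DESeq2 called 0 in each, and the edgeR likelihood ratio test, which called 8.84% of all tested genes, called 6 lower and 1 higher over the 3 lists. Their medians were -0.10, 0.11 and -0.04. *Ccnd2*, the D cyclin with the most counts, had 1203 and 1024 CPM against 1130.5 and 1249.6 CPM, which overlapped. *Ccnd3* was at -0.13, *Btg1* at 0.23, *Btg2* at 0.11, *Rbl2* at 0.08 and *Rbbp4* at -0.07. Of values that were not called, and picked after they were seen, lower ones were fitted for several regulators. *Cdk4* was at -0.43 (SE 0.10, edgeR adjusted p = 0.0524) and *E2f8*, a repressor E2F, at -1.52 (SE 0.37, edgeR adjusted p = 0.0614). *Cdkn2d* was at -0.48 (edgeR adjusted p = 0.0680) and *Tfdp1*, the partner of E2F proteins, at -0.71 (edgeR adjusted p = 0.0857). *Cdk6* was at -0.53 (edgeR adjusted p = 0.0892). *E2f7* had 26 and 23 counts in WT and 0 and 10 under the cKO label and was not called (edgeR adjusted p = 0.184). *Rb1*, the retinoblastoma gene, was higher in both cKO-labelled libraries, with 85.3 and 109.5 CPM against 150.6 and 125.3 CPM (log2 fold change 0.51, SE 0.15, edgeR adjusted p = 0.0947), as was *Lin54* of the DREAM complex at 0.39 (edgeR adjusted p = 0.229).

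**Figure D4:**
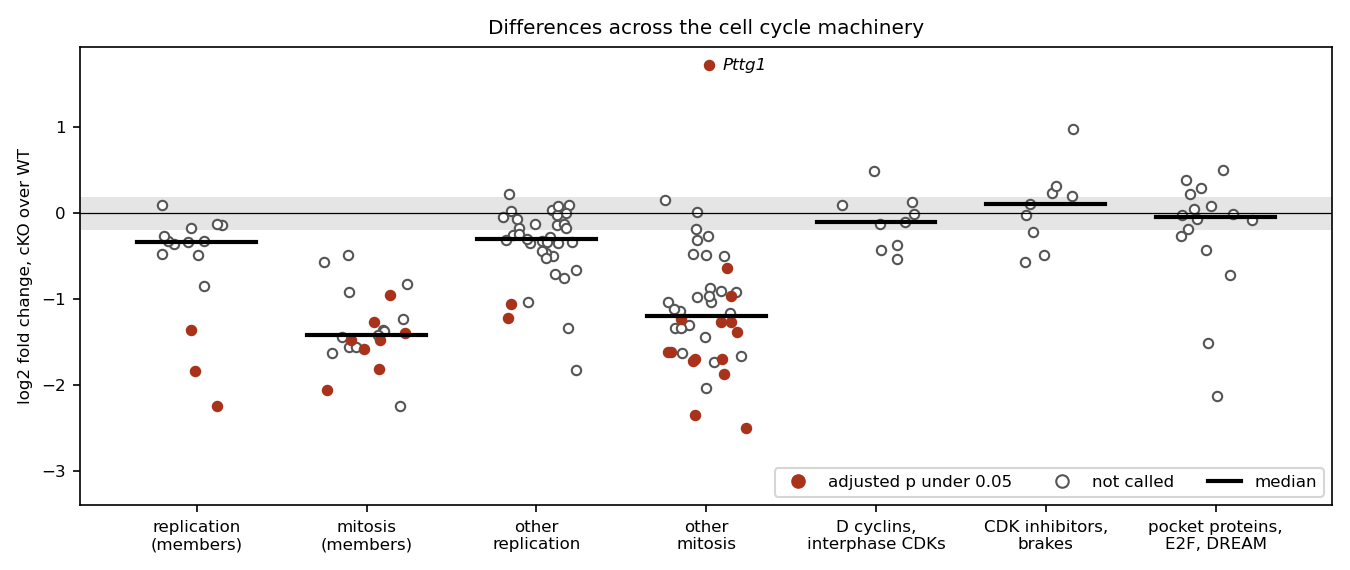
Log2 fold change, cKO-labelled over WT libraries (vertical), of the tested genes of 7 lists (1 point each, red where the adjusted p was under 0.05, black bars for medians, horizontal scatter without meaning). The grey band spans the quartiles of all tested genes. The medians are -1.41 and -1.19 for the mitosis lists, -0.33 and -0.30 for the replication lists and between -0.10 and 0.11 for the regulators, with *Pttg1* the 1 red point above 0.

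Markers of other cells and states differed between the labels and between libraries. The 6 Treg cell markers summed to 456 and 382 CPM in WT and 830.4 and 1040.3 CPM under the cKO label, with 4 of 6 called higher. The 7 activated T cell markers summed to 608 and 545 against 696 and 628 CPM, with *Cd69* and *Tnfrsf4* called higher. *Myc* of the same list went the other way, with 195 and 174 against 156 and 113 CPM. It was not called (log2 fold change -0.46, SE 0.15, edgeR adjusted p = 0.136). *Cd44*, *Icos*, *Tnfrsf9* and *Il2* overlapped between the labels. B cell markers summed to 13.9 and 13.6 against 53.5 and 22.4 CPM, and *Pax5* was called higher of the 3 of 7 tested. The 10 myeloid markers summed to 34.4 and 43.3 against 105.7 and 59.3 CPM, with 3 called higher. *Itgam* and *Cd68* had fitted log2 fold changes below 0, at -0.85 and -0.29, and were not called. *Csf1r* overlapped between the labels, with 17.7 and 19.9 against 38.1 and 18.8 CPM. The CD8 T cell markers *Cd8a* and *Cd8b1* summed to 47.5 and 58.2 against 34.1 and 26.7 CPM, and *Cd8b1* fell (42.2 and 51.8 against 27.3 and 22.4 CPM, edgeR adjusted p = 0.0201). Of 7 naive T cell markers *Ccr7* fell (0.65-fold, edgeR adjusted p = 0.0199) and *Il7r* rose (2.06-fold, edgeR adjusted p = 0.0257), and the sums were 6735 and 7372 against 7668 and 5834 CPM. Plasma cell markers summed to 45.2 and 46.4 against 68.9 and 59.9 CPM. Most of that came from *Xbp1*, with 31.5 and 32.1 against 45.0 and 45.7 CPM. *Sdc1* of the same list went the other way, with 5 and 3 counts against 2 and 2. Of these sums only the naive one overlapped between the labels, and those of B cell, myeloid, plasma cell, activated and naive T cell markers were highest in cKO 1, the library with the lowest mitosis sum.

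Erythroid markers, from a lineage whose precursors divide in the mouse spleen, followed neither label. Their sums were 104 and 331 CPM under the WT label and 10.6 and 228 CPM under the cKO label, and *Slc4a1* was at 0 counts in cKO 1. The mitosis sums of the same libraries were 562 and 595 CPM and 128 and 312 CPM, and cKO 1 was lowest in both. Germinal centre B cell markers summed to 46.2 and 43.1 against 50.3 and 48.0 CPM. Most of that came from *Fas*, at 30.1 to 32.4 CPM, and *S1pr2*, with 12.5 and 11.6 against 16.1 and 16.5 CPM, and *Gcsam* had at most 1 count in a library. The 4 granulocyte precursor markers summed to 0 and 0 against 2.85 and 1.48 CPM. The study's methods describe T cells that were magnetically enriched and then sorted. The part of these other cells in the differences of cell cycle genes was not tested.

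**Figure D5:**
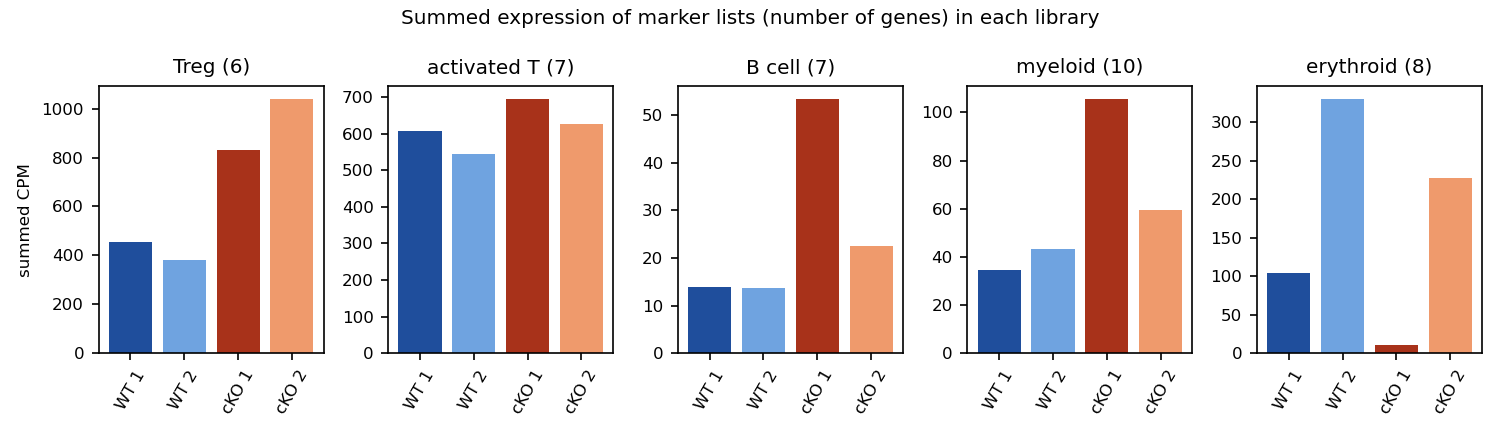
Summed CPM of 5 marker lists in each library, with vertical axes from 0 that differ between panels. Treg sums are higher in both cKO-labelled libraries, B cell and myeloid sums are highest in cKO 1, and the erythroid sum is lowest in cKO 1 and highest in WT 2.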

How the data were processed

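RNA-seq of splenic CD4+ T cells, 2 libraries per genotype label, was used. Per the labels the authors aligned reads with HISAT2 2.1.0 and counted them per gene with HTSeq 0.11.1, and the deposited values are whole-number counts with no normalization. The annotation, the strand setting and whether the libraries kept strand are not given in the sources used here. Reads in no gene, 59.4% to 64.5% of the totals in the tables, were left out.

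Genes passing the edgeR low-count filter (12403) were tested with edgeR 4.0.16 (TMM scaling, quasi-likelihood F test, Benjamini-Hochberg adjustment over all of them) in R 4.3.3, and called at an adjusted p under 0.05. CPM use TMM-scaled totals. Log2 fold changes are cKO-labelled over WT. The test was also tried on counts simulated with the common spread estimated from these data, and the outcome is not given here. Alternatives were other scaling, DESeq2 1.42.0, other filters, thinning, a replicate block and leaving out each library.

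The 42 members and the other lists were chosen with earlier results of these data known. All members are named, and of the other pathway genes those called and the 2 most abundant in each list. Some regulators that were not called, picked after their values were seen, are named too. Exonic lengths and positions come from GENCODE M21 (GRCm38), promoters from RefSeq (GRCm38.p6). Some marker genes are not reported here.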

Additional observations from a re-analysis of the deposited data

How the results depend on the processing

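The 13 calls among the 42 genes became 26 with the edgeR likelihood ratio test, 29 with no low-count filter and 2 at an adjusted p under 0.01. Calls over all genes went from 533 to 1096, 1367 and 153, and in the other pathway lists from 17 to 40, 48 and 2. With 1 library left out, calls ranged from 4 (without WT 2) to 32 (without cKO 2) among the 42 genes, from 180 to 1790 over all genes and from 3 to 54 in the other lists. The median log2 fold change ranged from -1.47 to -0.74 over the 42 genes, from -0.44 to -0.33 over replication genes and from -2.28 to -0.89 over mitosis genes, and the ratio from 1.52-fold to 3.55-fold. The log2 fold change of *Mcm6* changed sign without WT 2, to -0.011, in a range that reached 0.22, and that of *Tk1* without WT 1, to 0.039, and without cKO 1, to 0.0027, in a range that reached -0.27. The causes were not tested. Of 504 values for single members under the alternatives, 406 kept direction and side of the threshold, 83 gained a call, 12 lost one and 3 changed sign.

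Deviations of same-numbered libraries correlated at 0.0642, so the numbers are used as names only. A fit with the replicate number as a block called 27 of the 42 genes, 1165 of all genes and 40 in the other lists.

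Depth limits genes with few counts, such as *Ccnb1* and *Cks2*, with 7 to 17 counts per library, and *Bub1*, with 2 in cKO 1.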
